A study of Mus musculus with 13 samples.

Results

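The tetrahydrobiopterin pathway was followed in lung metastases that B16F10 melanoma cells formed in mice carrying human APOE2 or human APOE3. Its genes were taken by symbol: Gch1, Gchfr, Pts, Spr, Pcbd1, Pcbd2 and Qdpr, which are 7 of the 22656 genes in the deposited table. Pcbd2 was picked because its values differed between the genotypes, so its difference is described here and not tested. The other members were taken because they belong to the same pathway, and their differences were tested.

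The cells were B16F10-TR-shApoe, a derivative of the B16F10 melanoma line that carries a hairpin RNA against Apoe, and every library of both groups came from these cells. They were injected into a tail vein of APOE2 or APOE3 knock-in mice, and lungs were taken at day 15, when living GFP-positive cells without the leukocyte antigen CD45 were sorted. There were 8 APOE2 and 5 APOE3 libraries. The age and sex of the mice and the number of mice behind a library are not given in the sources used here. The p-values therefore set a difference against the spread between libraries, which may in part be technical, and libraries may not be independent animals. The genotype is that of the host, and all tumour cells descend from 1 line.

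Tetrahydrobiopterin is a cofactor made from GTP. GTP cyclohydrolase (Gch1) takes the first step, pyruvoyl-tetrahydropterin synthase (Pts) the next, and sepiapterin reductase (Spr) finishes the molecule, while Gchfr is a regulatory protein that binds the cyclohydrolase and passes on feedback. The aromatic amino acid hydroxylases, the nitric oxide synthases and alkylglycerol monooxygenase use the cofactor. After a hydroxylation, the carbinolamine dehydratases Pcbd1 and Pcbd2 remove water from the spent cofactor and dihydropteridine reductase (Qdpr) restores it. In pigment cells the pathway is known for its link to tyrosine, the starting material of melanin.

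The promoters of Pcbd2, of its paralog Pcbd1 and of Pts are shown because every APOE2 library had more Pcbd2 and more Pts than any APOE3 library, and because Pcbd1 was almost without reads. Each sequence is the 250 bases before the gene's start, 5′ to 3′ on the gene's strand, from RefSeq on GRCm38.p6, with every CpG in capitals. All 7 members had a promoter in the RefSeq table. RefSeq's starts of Pts, Gchfr, Spr and Qdpr lie within the GENCODE genes, so the ends of these windows do too.
Pcbd2 (chr13:55727118-55727367, + strand): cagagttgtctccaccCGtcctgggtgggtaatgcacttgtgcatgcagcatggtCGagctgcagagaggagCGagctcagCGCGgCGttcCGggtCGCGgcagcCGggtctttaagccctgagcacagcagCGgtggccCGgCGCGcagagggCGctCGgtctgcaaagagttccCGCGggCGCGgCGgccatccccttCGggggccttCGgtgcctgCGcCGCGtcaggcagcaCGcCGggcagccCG
Pcbd1 (chr10:61089081-61089330, + strand): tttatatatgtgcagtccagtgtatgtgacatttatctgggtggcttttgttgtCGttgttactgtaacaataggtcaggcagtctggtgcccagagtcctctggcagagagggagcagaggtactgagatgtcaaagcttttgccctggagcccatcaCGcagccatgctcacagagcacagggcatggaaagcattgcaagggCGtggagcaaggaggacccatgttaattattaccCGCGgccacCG
Pts (chr9:50528657-50528906, - strand): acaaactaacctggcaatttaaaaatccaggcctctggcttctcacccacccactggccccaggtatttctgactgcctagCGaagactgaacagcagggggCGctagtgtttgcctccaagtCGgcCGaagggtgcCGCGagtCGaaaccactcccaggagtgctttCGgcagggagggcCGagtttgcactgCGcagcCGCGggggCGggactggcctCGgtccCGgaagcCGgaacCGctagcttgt
The Pcbd2 window held 29 CpG and 70.8% G and C, and 94.0% of 32536 distinct promoter windows had no more CpG than that. The Pcbd1 window held 6 CpG, which is the median of all promoter windows, and 51.6% G and C. The Pts window held 17 CpG, as did that of Gch1, and the remaining windows held 27 in Gchfr, 21 in Qdpr and 14 in Spr. The capitals therefore show a dense run of CpG before Pcbd2 and a number at the median of all windows before Pcbd1.

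These windows were searched on both strands for 9 motifs. The letters were CACGTG (in 6.04% of all windows), CATGTG (12.3%), CCAAT (33.8%), GGGCGG (33.0%), TGACGTCA (1.56%), TATAAA (12.3%), TGANTCA (6.73%), CCGGAAGT (2.90%) and the NRF1 site (3.77%). None of these 9 motifs was in the Pcbd2 window. The Pts window had 1 match, GGGCGG, with its first base 45 bases before RefSeq's start, a place inside the GENCODE gene. The Pcbd1 window had 1 match, TATAAA on the opposite strand, at the far end, 250 bases before the start. The GGGCGG letters were also in the windows of Gch1, Gchfr, Spr and Qdpr. With no more than 1 match in each window shown, matches could not overlap there.

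Recovered reads ranged from 7080308 to 13039989 per library. The deposited values are normalised counts, in which reads of a gene are divided by a size factor of the library, and the kit reads transcripts next to the poly(A) tail, so they were not divided by length. Melanocyte markers were abundant, as in a melanoma line: all 8 listed averaged over 10 normalised counts, with summed levels of 344363 to 501696 in APOE2 and 271661 to 381830 in APOE3. Of these limma called 0 and both edgeR and DESeq2 called 1, Dct, higher in APOE2. Dct was also the largest part of the sums, averaging 232522 normalised counts in APOE2 and 150389 in APOE3. Of the 8 markers, 4 had higher and 4 lower values in APOE2, with a median log2 difference of 0.031. Markers of other lung cells were present in both groups, and several were higher in APOE3, as given beside the results they touch.

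Pcbd2 (ENSMUSG00000021496, chromosome 13, 55727368 to 55776830 on the + strand of GRCm38) encodes a carbinolamine dehydratase. In APOE2 hosts it ran from 721 normalised counts in replicate 8 over a median of 748 to 1003 in replicate 6. In APOE3 hosts it had 285 in replicate 1, 466 in replicate 2, 446 in replicate 3, 453 in replicate 4 and 441 in replicate 5. The groups did not overlap: the lowest APOE2 library lay well above the highest APOE3 library. Of 12403 genes tested, 0.476% had every APOE2 library above every APOE3 library, and Pcbd2 was picked on this contrast. Apart from replicate 1, which was the lowest of all 13 libraries, the APOE3 libraries lay close together.

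Pcbd2 averaged 788 ± 94.7 normalised counts (SD) over the 8 APOE2 libraries and 418 ± 74.8 (SD) over the 5 APOE3 libraries. The log2 difference, APOE2 minus APOE3, was 0.93 on the log2(value + 1) scale, a 1.90-fold higher level. Because this contrast chose the gene, no test of it is given. Across the whole table, limma called 0.411% of 12403 genes higher in APOE2 and 0.379% lower, all from 1 fit with p-values adjusted over all genes. The mean was made of 6714 reads in the APOE2 group and 1974 in the APOE3 group. The coefficient of variation within a group was 12.0% in APOE2 and 17.9% in APOE3, where counting alone gives 3.47% and 5.05%. The annotation has a gene on the opposite strand, 4930451E10Rik, that shares 27 exon bases with Pcbd2. That gene has no values in the deposited table, so it could not be analysed, and the sources used here do not say if counting was stranded.

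**Figure D1:**
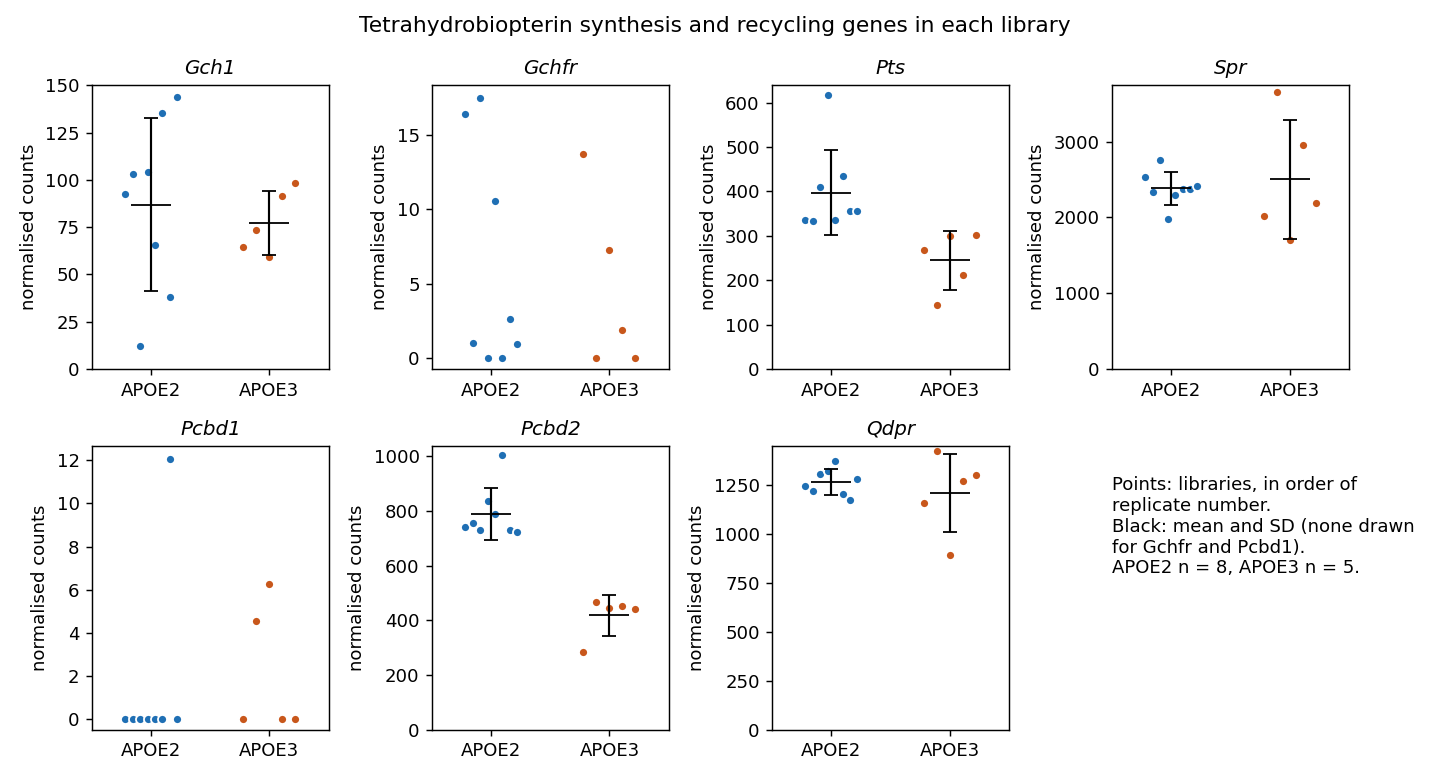
Normalised counts (vertical axes, each with its own scale) of the 7 genes in each library, with APOE2 libraries in blue and APOE3 libraries in orange; points are libraries and black marks are the mean and SD, not drawn for Gchfr and Pcbd1. The APOE2 and APOE3 points do not overlap for Pcbd2 and Pts, and overlap for the other 5 genes. Over 12403 genes tested, 0.476% had every APOE2 library above every APOE3 library.

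Pcbd1 (ENSMUSG00000020098, chromosome 10, 61089331 to 61094324, + strand), the paralog with the same enzyme activity, was nearly absent from these libraries. It had 0 reads in 10 of the 13. The exceptions were APOE2 replicate 7 with 14 reads, APOE3 replicate 2 with 4 reads and APOE3 replicate 3 with 6 reads. In a library, 0 reads allow up to 3 reads, which are 2.04 to 3.47 normalised counts, and these limits cover counting error only. No difference between genotypes was detectable for Pcbd1 at this depth, and no fold is given. Of the dehydratase pair, Pcbd2 was thus the one with reads in every library.

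Qdpr (ENSMUSG00000015806, chromosome 5, 45434021 to 45450236, - strand), which acts on the product of the dehydratases, was close to level. In APOE2 hosts it ran from 1173 over a median of 1263 to 1373 normalised counts. In APOE3 hosts it had 1158, 1423, 889.8, 1268 and 1302 in replicates 1 to 5. Only APOE3 replicates 1 and 3 lay below the lowest APOE2 library, and APOE3 replicate 2 was the highest of all. The log2 difference was 0.083 ± 0.11 (SE), with a 95% interval of 0.90-fold to 1.25-fold and a limma adjusted p of 0.788. Qdpr shares 332 exon bases with Gm42413 on the opposite strand, a gene that has no values in the deposited table.

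Within a library the level of Pcbd2 can be set against that of Qdpr, which removes the library's scaling. Pcbd2 was 55.9% to 83.2% of Qdpr in APOE2 hosts, with a median of 60.8%. It was 24.7% to 50.2% in APOE3 hosts, with a median of 33.9%. These shares are a description, since they rest on Pcbd2.

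Among the 4 other members with enough reads to test, Gch1, Pts, Spr and Qdpr, limma called 0 at an adjusted p under 0.05, where 0.79% of all genes tested were called in either direction. At an unadjusted p under 0.05 there was 1, Pts, where 14.2% of all genes were. With recovered reads, edgeR also called 0 of the 4, where it called 1.11% of all genes, and DESeq2 called 1, again Pts, where it called 2.51%. Gchfr and Pcbd1 had means under 10 normalised counts and were not tested. The 4 tested members had a median log2 difference of 0.032, against 0.00037 over all genes tested.

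Pts (ENSMUSG00000032067, chromosome 9, 50521617 to 50528724, - strand) makes the intermediate that sepiapterin reductase completes. In APOE2 hosts it ran from 334 normalised counts in replicate 2 over a median of 356 to 616 in replicate 4. In APOE3 hosts it had 268, 143, 299, 211 and 302 in replicates 1 to 5. Every APOE2 library was above every APOE3 library, a pattern found in 0.476% of all genes tested (0.508% had every APOE2 library below every APOE3 library), although the gap between the nearest libraries was small beside the spread within a group.

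Pts averaged 397 ± 96.0 normalised counts (SD) over the 8 APOE2 libraries and 245 ± 67.3 (SD) over the 5 APOE3 libraries. The log2 difference was 0.72 ± 0.19 (SE), a 1.64-fold higher level with a 95% interval of 1.25-fold to 2.16-fold. In limma the unadjusted p was 0.00096 and the adjusted p 0.0753, so Pts did not pass the threshold. The DESeq2 adjusted p on recovered reads was 0.0273, past the threshold, and the edgeR adjusted p was 0.0812. Over all alternatives the adjusted p ran from 0.0273 to 0.529, and the log2 difference stayed between 0.54 and 0.81. The lowest of these differences came from leaving out APOE3 replicate 2.

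Spr (ENSMUSG00000033735, chromosome 6, 85130176 to 85137766, - strand) catalyses the last step to the cofactor, and its groups overlapped. In APOE2 hosts it ran from 1981 over a median of 2375 to 2761 normalised counts. In APOE3 hosts it had 2024, 3653, 1698, 2952 and 2190 in replicates 1 to 5. The highest and the lowest of all libraries were both from APOE3 hosts. The log2 difference was -0.019 ± 0.14 (SE), with a 95% interval of 0.81-fold to 1.21-fold and a limma adjusted p of 0.970. A pseudogene, Spr-ps1, is annotated, and how reads shared with it were counted is not given in the sources used here.

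Gch1 (ENSMUSG00000037580, chromosome 14, 47153895 to 47189413, - strand), the first enzyme, was the least steady of the tested members in APOE2 hosts. There it ran from 12.0 normalised counts in replicate 3 over a median of 97.8 to 144 in replicate 8. In APOE3 hosts it had 64.3, 73.4, 59.3, 91.3 and 98.3 in replicates 1 to 5. The APOE2 libraries lay on both sides of the APOE3 libraries: 4 were above all of them and 2 were below all of them.

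The coefficient of variation of Gch1 was 52.7% in APOE2, where counting alone gives 10.5%, and 21.9% in APOE3, where it gives 11.7%. The log2 difference was -0.11 ± 0.44 (SE), with a 95% interval of 0.50-fold to 1.74-fold and a limma adjusted p of 0.943. Without APOE2 replicate 3 it was 0.25, with an adjusted p of 0.780. That library had 13 reads of Gch1, the smallest summed lung-epithelium level of the study (657 normalised counts) and the fewest genes with reads (14026). Whether these go together was not tested. A pseudogene inside the Gch1 locus on the same strand, Gm18811, had means of 1.67 and 2.26 normalised counts in APOE2 and APOE3.

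Gchfr (ENSMUSG00000046814, chromosome 2, 119167773 to 119172390, + strand), the feedback protein of the cyclohydrolase, was at the edge of detection. It had from 0 to 24 reads in APOE2 libraries, with 2 of 8 at 0. It had 13, 0, 7, 2 and 0 reads in APOE3 replicates 1 to 5. The groups overlapped in part: APOE2 replicates 1 and 3, at 16.4 and 17.5 normalised counts, were above the highest APOE3 library, at 13.7.

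The balance of enzyme and regulator was taken in each library as the log2 value of Gch1 minus that of Gchfr. It was 4.20 ± 2.67 (SD, n = 8) in APOE2, from -0.51 to 7.09. It was 4.57 ± 1.995 (SD, n = 5) in APOE3, from 2.15 to 6.63. The difference of -0.37 had p = 0.805 by exact permutation of the genotype labels, two-sided, over all 1287 arrangements, of which the smallest possible p is 0.000777. The spread of this balance within a genotype was several times the difference, and it rested on the few reads of Gchfr.

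**Figure D2:**
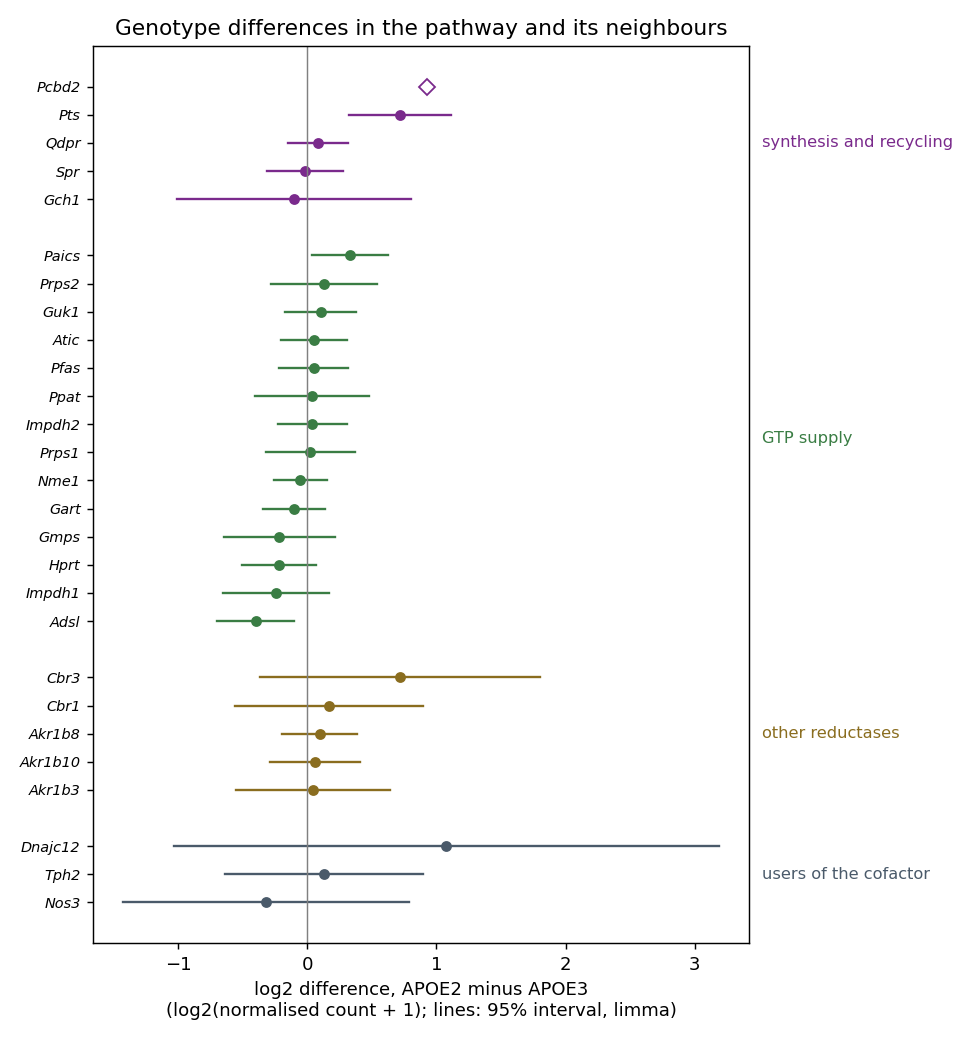
The log2 difference, APOE2 minus APOE3 (horizontal axis), for every gene of the pathway lists averaging 10 normalised counts or more; filled points and lines are limma estimates with 95% intervals, and the open diamond is Pcbd2, which is shown without an interval because it was chosen on this contrast. Pts stands at 0.72 and Pcbd2 at 0.93, while Qdpr, Spr and Gch1 lie between -0.11 and 0.083.

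The 5 members with enough reads were next compared with each other across the 13 libraries, after the mean of each genotype had been subtracted from log2 values. Of 10 pairs, Pts and Spr had the strongest relation, and it was inverse. Pearson's r was -0.79 (permutation p = 0.00427 within genotypes, 0.0427 after Benjamini-Hochberg adjustment over 10 pairs). Spearman's rho was -0.69 (permutation p = 0.0222, adjusted 0.222), which did not pass. Within the 8 APOE2 libraries alone r was -0.58, and within the 5 APOE3 libraries, too few for a test, it was -0.93.

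Without APOE2 replicate 4 and APOE3 replicate 2, the libraries farthest from the median of Pts, r was -0.63. APOE3 replicate 2 had the lowest Pts and the highest Spr of the study, and APOE2 replicate 4 had the highest Pts and the lowest Spr of its group. As a share of Spr, Pts was 13.2% to 31.1% in APOE2 hosts and 3.93% to 17.6% in APOE3 hosts, so these shares overlapped. Spr and Qdpr had r = 0.70 (permutation p = 0.0831, adjusted 0.415) and rho = 0.34 (permutation p = 0.351, adjusted 0.977), and r fell to 0.062 without APOE3 replicates 2 and 3, so this relation rested on those libraries.

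Pcbd2 and Pts, the members whose genotype groups did not overlap, had no relation of 1 sign inside the genotypes. Their pooled r was -0.0053 (permutation p = 0.989, adjusted 0.989) and their rho -0.022 (permutation p = 0.954, adjusted 0.977), and r was 0.12 without APOE2 replicate 4 and APOE3 replicate 2. It was 0.49 within the 8 APOE2 libraries and -0.32 within the 5 APOE3 libraries, given as a description. For the other 7 pairs the adjusted permutation p-values of r were 0.642 or more. All values of a library share its scaling.

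Across 9679 other genes averaging 50 normalised counts or more, the 5 most like Pcbd2 by Pearson's r within genotypes over the 13 libraries were Eps8l1 (r = 0.89), C030037D09Rik (0.87), LTO1 (0.87), Brca1 (0.87) and Tead4 (0.84). These are given as a description, being the highest of many values. Their log2 differences between genotypes ran from -0.25 to 0.25, with limma adjusted p-values from 0.516 to 0.971.

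**Figure D3:**
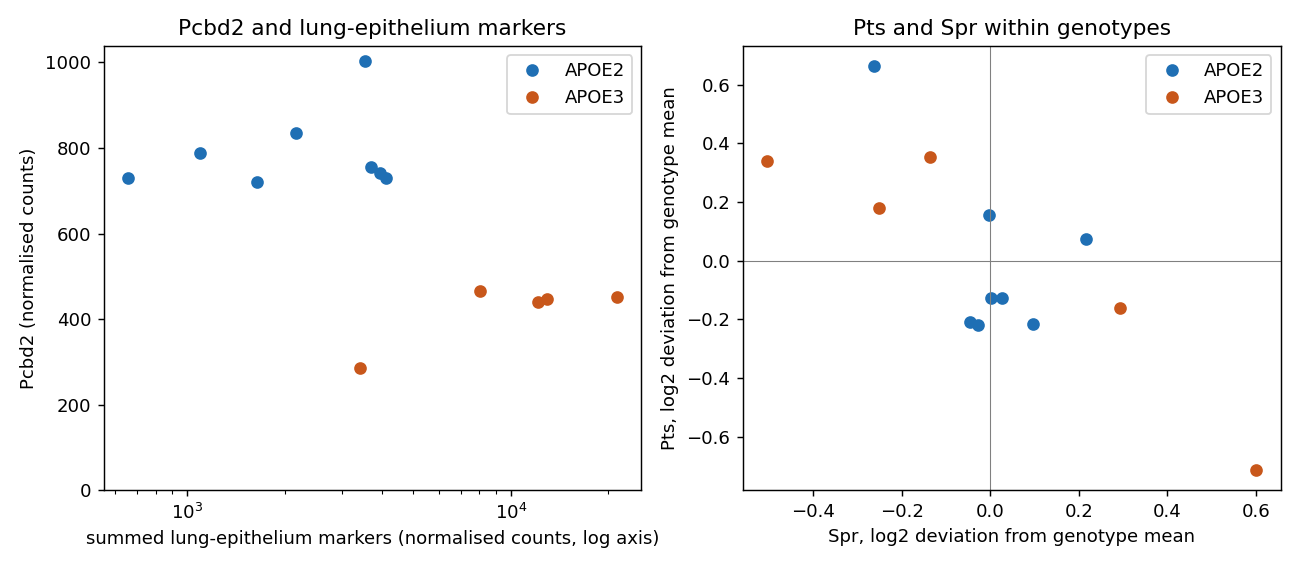
Left, Pcbd2 in normalised counts against the summed level of 14 lung-epithelium markers (log axis); right, log2 deviations of Pts and Spr from their genotype means; points are libraries, APOE2 in blue and APOE3 in orange. On the left APOE3 replicate 1 stands at 3428 summed marker counts, among the APOE2 libraries, with the lowest Pcbd2 value of 285; on the right the 13 points run from upper left to lower right (r = -0.79).

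Markers of other lung cells moved with genotype in the same libraries. Of 12 lung-epithelium markers tested, limma called 6 lower in APOE2 and 0 higher, where it called 0.379% of all genes lower and 0.411% higher. The summed level of the 14 listed genes was 657 to 4106 normalised counts in APOE2 and 3428 to 21297 in APOE3. None of the 14 was at 0 in every library, and Epcam and Scgb3a2 were at 0 in most. Limma called 1 of 10 endothelial markers, 1 of 6 fibroblast and smooth muscle markers, 1 of 7 leukocyte markers and 0 of 3 erythroid markers, all lower in APOE2. On recovered reads edgeR and DESeq2 each called 8 lung-epithelium markers lower, where they called 1.11% and 2.51% of all genes in either direction. Of the endothelial markers edgeR called 2 and DESeq2 called 6 lower, and both tools also called Acta2 and Lyz2 lower. Summed levels in APOE2 and APOE3 were 390 to 547 and 481 to 1413 normalised counts for endothelium, and 100.2 to 442 and 258 to 1847 for fibroblast and smooth muscle. They were 460 to 2520 and 2056 to 12228 for leukocytes, and 40.6 to 189 and 23.2 to 220 for erythroid cells. The leukocyte sum was mostly Lyz2, the leukocyte marker that limma called (1162 ± 694 against 5288 ± 3944, SD), which alveolar epithelium also expresses, while Ptprc, the gene of CD45, averaged 6.90 and 14.0. The ranges of the 2 genotypes overlapped in every list, but for epithelium, endothelium and leukocytes only through APOE3 replicate 1, whose sums were 3428, 481 and 2056. Some markers had higher values in APOE2, such as the airway gene Foxj1 (15.6 ± 12.6 against 4.08 ± 1.90 normalised counts, SD), with a limma adjusted p of 0.391. In these bulk libraries, fewer cells of a type and less RNA per cell cannot be told apart.

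APOE3 replicate 1 had 3428 summed lung-epithelium counts, within the APOE2 range, and its Pcbd2 value of 285 was the lowest of the study. The log2 difference of Pcbd2 was 0.79 without that library. With the mean log2 value of the 14 epithelial markers as a covariate it was 1.06. For Pts the same covariate gave 0.63, with a limma adjusted p of 0.529. The covariate, a measure unlike the sum, gives each of the 14 markers equal weight. Of the 12 past the filter, 2, Foxj1 and Scgb3a2, had higher values in APOE2 and 10 had lower values. The covariate ran from 3.35 to 6.38 in APOE2 and from 5.27 to 6.85 in APOE3. It differed with genotype, so its part cannot be fully told apart from that of genotype. With it limma called 1 gene higher and 1 lower over all genes, against 51 and 47 without it. The part of the epithelial and other marker lists was not tested.

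**Figure D4:**
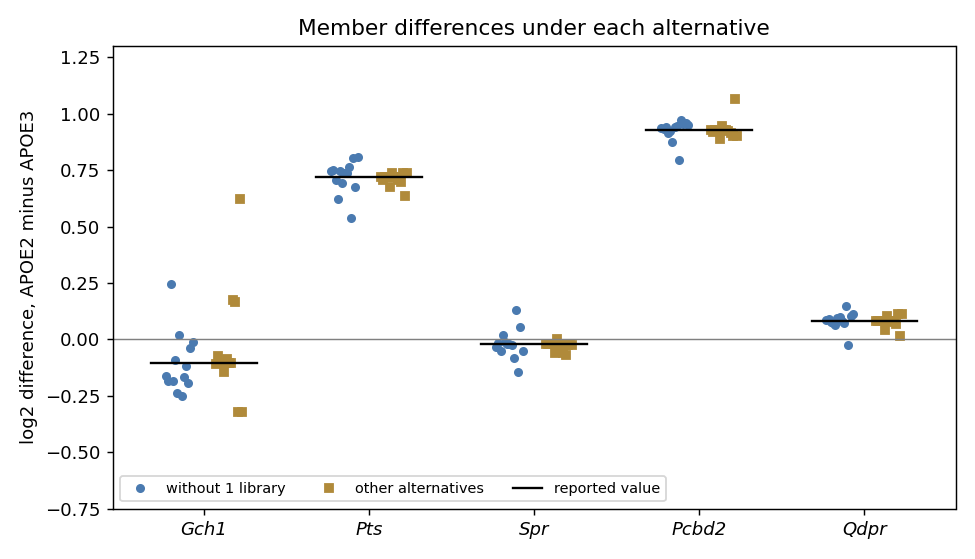
The log2 difference, APOE2 minus APOE3 (vertical axis), of the 5 members past the filter: the black line is the reported value, circles are fits without 1 library and squares are the other alternatives. Pcbd2 lies between 0.79 and 1.06 and Pts between 0.54 and 0.81, whereas values of Gch1, Spr and Qdpr lie on both sides of 0.

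The genes around the pathway were examined in the lists of its GTP supply, its alternative reductases and its users. In these lists limma, edgeR and DESeq2 each called 0 genes in either direction, where they called 0.79%, 1.11% and 2.51% of all genes. At such shares, lists this short would hold few calls or none. For the 15 genes of purine synthesis and GTP formation, 14 passed the filter, 8 with higher and 6 with lower values in APOE2, with a median log2 difference of 0.030. At an unadjusted p under 0.05 there were 2, or 14.3% of the 14, close to the 14.2% of all genes. They were Adsl, adenylosuccinate lyase, with 401 ± 65.9 against 528 ± 70.8 normalised counts (SD, n = 8 and 5), a log2 difference of -0.40 and a limma adjusted p of 0.207, and Paics, which joins steps of the ring synthesis, with a difference of 0.33 and an adjusted p of 0.300. Next was Hprt, the salvage enzyme of guanine, with a difference of -0.22 and a limma adjusted p of 0.493. Both enzymes that commit the purine ring to GTP, Impdh1 and Impdh2, had differences of -0.24 and 0.037, with limma adjusted p-values of 0.615 and 0.932.

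Other reductases can act on pterins or on carbonyl groups of their side chains. Of 6 listed, 5 passed the filter, 5 with higher and 0 with lower values in APOE2, where all genes tested split into 6208 and 6195. Their median log2 difference was 0.095, and 0 had an unadjusted limma p under 0.05. The 3 with the smallest p were Cbr3, Akr1b8 and Cbr1. Cbr3, a carbonyl reductase, had a difference of 0.72 with a 95% interval from -0.37 to 1.80 and a limma adjusted p of 0.567. Akr1b8, of the aldose reductase family, had a difference of 0.095 and a limma adjusted p of 0.807; its relatives are close in sequence, so single members are uncertain. Cbr1, another carbonyl reductase, had a difference of 0.17 and a limma adjusted p of 0.872.

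Most of the listed enzymes that use the cofactor had few reads. Of 7 listed genes, which include a co-chaperone, 3 passed the filter, 0 of them with an unadjusted limma p under 0.05. Tph2, the tryptophan hydroxylase best known from neurons, had reads in every library, from 34.0 over a median of 63.2 to 120 normalised counts in APOE2 and 75.8, 31.6, 60.4, 105 and 49.7 in APOE3 replicates 1 to 5. Its groups overlapped, and the log2 difference was 0.13, with a limma adjusted p of 0.918. Nos3, the endothelial nitric oxide synthase, had 25.6 ± 12.2 normalised counts in APOE2 and 36.8 ± 28.7 in APOE3 (SD), with a limma adjusted p of 0.834. Dnajc12, a co-chaperone of the aromatic amino acid hydroxylases, had a difference of 1.08 with a 95% interval from -1.04 to 3.19 and a limma adjusted p of 0.677. Nos2, the inducible synthase, had reads in 1 library, and Nos1, Tph1 and Agmo had means under 10 normalised counts.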

How the data were processed

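RNA of 13 libraries was read with the QuantSeq forward kit, per the labels' protocols. The values deposited are normalised counts per gene, treated here as a non-negative signal. STAR 2.6.0, featureCounts, DESeq2 1.28.1 and the build mm10 are named in the submitters' processing notes; their settings are not given in the sources used here. All nonzero values of a library were whole multiples of 1 step (100% within a tolerance of 1e-06 of a read), and the whole reads so recovered were used for read totals and count tests. Symbols came from GENCODE M21 (GRCm38), which matched 22649 of 22656 identifiers.

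Groups were the genotypes in the labels. Genes averaging 10 normalised counts or more (12403) were fitted with limma 3.58.1 in R 4.3.3 on log2(value + 1), with an intensity trend, two-sided, with Benjamini-Hochberg adjustment over all genes and a threshold of 0.05. The balance of Gch1 and Gchfr used an exact permutation test, and relations between members used 100000 permutations within genotypes. Alternatives were other pseudocounts, filters and scalings, limma without trend or robust, edgeR 4.0.16 and DESeq2 1.42.0 on recovered reads, a replicate block, a lung-epithelium covariate, replicates 1 to 5 alone and each library left out. The fits were tested on simulated data. Genes were named by rule: all members, for each pathway list the genes past the threshold or else the 3 with the smallest p, and the 5 genes most like Pcbd2; Impdh1, Impdh2 and the remaining users of the cofactor were named after their values were seen. The members and lists were chosen with earlier results of these data known, and some genes related to the pathway are not reported here.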

Additional observations from a re-analysis of the deposited data

Results flagged for a closer look

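In 14 screens of the members' normalised counts, 1 for each gene and genotype, 4 libraries stood apart from the rest of their group by Dixon's criterion at 95%, where chance gives about 0.7. That figure assumes normally distributed values, which Gchfr and Pcbd1, with libraries at 0, do not have. Pcbd2 in APOE3 replicate 1 was 285, against 441 in the nearest APOE3 library. Pcbd2 in APOE2 replicate 6 was 1003, against 835 in the nearest APOE2 library. Pts in APOE2 replicate 4 was 616, against 434 in the nearest. Pcbd1 in APOE2 replicate 7 was 12.1, where the other 7 APOE2 libraries were at 0, so a lone library with reads had to stand apart.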

How the results depend on the processing

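The log2 difference of Pcbd2 ran from 0.79 to 0.97 without 1 library and from 0.89 to 1.06 otherwise; its sign could not change when a library was left out, since its groups did not overlap. Of the 4 tested members 0 were called under every alternative except DESeq2, which called 1, Pts; the cause was not tested. Pts ran from 0.54 to 0.81 without 1 library. Gch1 changed sign with edgeR (0.17), with DESeq2 (0.17) and with the lung-epithelium covariate (0.62), and ran from -0.25 to 0.25 without 1 library. Spr changed sign under TMM scaling (0.00088) and ran from -0.15 to 0.13 without 1 library, and Qdpr from -0.023 to 0.15. Gch1 minus Gchfr ran from -0.98 to 0.30 without 1 library, and was positive without APOE2 replicate 3 or APOE3 replicate 2 or 5. The causes were not tested.

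Over all genes, 51 were called higher and 47 lower in APOE2. The counts were 5 and 4 with no filter on low values, 0 and 0 in limma without trend (where 1599 had an unadjusted p under 0.05), 153 and 158 with DESeq2, 1 and 1 with the lung-epithelium covariate, and 19 and 21 with replicates 1 to 5 alone. With equal totals they were 38 and 54. Lower calls numbered 73 with a pseudocount of 5 and 77 with edgeR. Without 1 library the counts ran from 5 to 131 higher and from 4 to 97 lower, the smallest without APOE3 replicate 3 and the largest without APOE3 replicate 1. The causes were not tested.

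The same replicate numbers occur in both groups, but same-numbered libraries did not deviate together: correlations over genes were -0.063 to 0.014, and no APOE3 library correlated best with its own number. With a replicate block, 17 genes were called higher and 26 lower, and 0 of the tested members. With the block Pts was at 0.74 (limma adjusted p = 0.208), Pcbd2 at 0.90, and Gch1 minus Gchfr at -1.20 (exact permutation p = 0.375 over sign changes of the 5 pairs, which cannot go below 0.0625). Depth limits Pcbd1 and Gchfr, which had from 0 to 24 reads in a library.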
